A study of Mus musculus with 26 samples.

Results

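Kinesins are motor proteins that walk along microtubules, and 37 genes of this superfamily were measured in 13 sorted neuron subtypes of the mouse retina. The members were all genes in the probe table of the array whose symbol begins with Kif and a digit, which gave 37 of the 18193 genes measured. They were read by 99 probe sets with a single gene symbol, and the probe set with the highest mean level stood for each gene. By their known roles, 15 were grouped as transport kinesins, 11 as mitotic kinesins and 11 as other kinesins. All 15 transport kinesins, 7 of the mitotic and 7 of the other kinesins were bright enough to be tested, 29 in all. The 8 that were too dim on nearly every array were Kif4, Kif14, Kif15 and Kif20a among the mitotic motors and Kif2b, Kif9, Kif12 and Kif28 among the others.

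The study set out to compare gene expression between retinal neuron subtypes, each purified by flow cytometry from reporter mice at postnatal day 6, with 2 arrays per subtype from different litters. The 6 ganglion cell groups were YFP+ Thy1+ cells named BD, J, W3 and W7 RGC, GFP+ Thy1+ cells of a Cdh3 BAC line and bgal+ Thy1+ cells named Isl2 RGC. The 5 amacrine groups were starburst cells (Kusabira Orange+, Thy1-), GFP+ AII cells, a GFP+ GABAergic subset called PaxCre, a YFP+ glycinergic subset called J, and MP-positive cells (CFP+ VC1.1+). The 2 bipolar groups were MP-positive cells (CFP+ VC1.1-) and GFP+ ON bipolar cells. Strains were C57BL/6 for most groups, a C57BL/6 x CD1 mix for both MP groups, Swiss Webster x C57BL/6 for the AII group, and for the Cdh3 replicates Swiss Webster x C57BL/7 and Swiss Webster x C57BL/8, as their labels read. Reporters and gates differed between most subtypes, and strains between some, so that subtype and reporter, gate or strain mostly cannot be told apart.

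Values are array intensities, taken here as log2(intensity + 16) after quantile normalization, a scale on which the lowest deposited value lies at 4.09 and on which folds of dim genes are understated. The 12 ganglion cell arrays had been deposited on a higher scale (array medians of 61.5 to 74.7) than the 14 others (37.4 to 47.2), and scale and cell class cannot be told apart. As averages over marker lists, the labels held. Ganglion cell markers averaged 10.86 to 11.37 on ganglion arrays and at most 7.82 elsewhere. Amacrine markers averaged 8.58 to 9.97 on amacrine arrays and bipolar markers 9.24 to 11.01 on bipolar arrays, each at most 7.95 elsewhere. Single markers could depart from this. Thy1 read 11.67 in MP bipolar and 9.98 in starburst cells, and Otx2 read 10.89 in MP amacrine cells. J amacrine cells, glycinergic by their label, read 11.69 for Slc6a9 but also 10.82 for the GABAergic marker Gad1. Trpm1 read 6.76 in ON bipolar and 6.20 in W3 ganglion cells. Between ganglion and amacrine cells, 10 of 11 ganglion cell markers were called higher. Of 9 amacrine markers tested there, 6 were lower in ganglion cells and 2 were higher. Ganglion arrays also carried microglial transcripts. All 10 microglia markers tested were higher in ganglion than in amacrine arrays, their mean level running from 6.03 to 10.13 against 5.25 to 7.08, and 5 of 9 vascular markers were higher too. Of 11 rod markers, 7 were lower in ganglion than in amacrine arrays. Their group means were highest in MP amacrine (9.20) and MP bipolar cells (9.13), and at most 7.25 in ganglion groups. The part of these transcripts in the differences between classes was not tested. A difference is called here when its adjusted p (limma, Benjamini-Hochberg over all 13951 genes tested) was under 0.05 and its size at least 1 log2 unit. In sorted bulk samples, a lower signal from fewer cells expressing a gene and from less RNA per cell cannot be told apart.

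Most kinesins move towards the fast-growing plus end of microtubules, which in axons points away from the cell body, and so carry vesicles, mitochondria and receptors outward. A smaller set builds the mitotic spindle or divides the cell, and is made mainly in cycling cells. Retinal ganglion cells send a long axon through the optic nerve to the brain, whereas bipolar and amacrine cells keep their processes within the retina. At postnatal day 6 most of these neurons have left the cell cycle.

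Most promoters of the mitotic kinesins held a short element, TTTGAA, that those of the transport motors mostly lacked. The windows came from RefSeq (GRCm38.p6) and ran from 250 bases before to 50 after the annotated start. A window was at hand for 31 of the 37 genes, with 35 windows in all. They were searched on both strands for TTTGAA, the core of the cell cycle genes homology region, and for CCAAT, the box bound by NF-Y. Neither of these 2 motifs contains the other, though neighbouring matches can share a base. TTTGAA was found in 9 of the 10 mitotic windows, 1 of 13 transport windows (Kif1a) and 2 of 12 other windows (Kif26b and Kif27), beside 17.9% of all 32851 promoter windows. CCAAT was found in 6 of 10 mitotic, 4 of 13 transport and 5 of 12 other windows, beside 37.4% of all windows. Both motifs occurred in 6 of 10 mitotic, 0 of 13 transport and 2 of 12 other windows, beside 7.0% of all. The variant TTTAAA was found in 2 of 10 mitotic windows (Kif2c and Kif14), in 0 of 13 transport and in 0 of 12 other windows, beside 13.2% of all. A match describes letters only and shows neither binding nor activity.

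The stretch from 100 bases before to 20 after the start is printed 5′ to 3′ for 4 mitotic kinesins that were measured here, to show how the elements sit together, with Kif5c and Kif26a, which held neither, for comparison. Capitals mark TTTGAA and CCAAT on either strand, so that they also appear as TTCAAA and ATTGG. The windows lie at chr19:37376282-37376401 (+ strand) for Kif11, chr11:102925105-102925224 (- strand) for Kif18b, chr7:127042401-127042520 (- strand) for Kif22, chr9:61946780-61946899 (- strand) for Kif23, chr2:49619186-49619305 (+ strand) for Kif5c and chr12:112146108-112146227 (+ strand) for Kif26a.
Kif11: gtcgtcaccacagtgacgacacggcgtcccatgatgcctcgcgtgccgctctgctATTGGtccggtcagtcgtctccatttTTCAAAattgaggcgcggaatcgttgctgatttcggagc
Kif18b: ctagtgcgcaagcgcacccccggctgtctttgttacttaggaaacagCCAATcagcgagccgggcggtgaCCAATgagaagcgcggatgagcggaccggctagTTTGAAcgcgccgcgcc
Kif22: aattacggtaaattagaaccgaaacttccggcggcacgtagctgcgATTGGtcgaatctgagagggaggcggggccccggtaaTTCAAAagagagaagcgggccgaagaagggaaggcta
Kif23: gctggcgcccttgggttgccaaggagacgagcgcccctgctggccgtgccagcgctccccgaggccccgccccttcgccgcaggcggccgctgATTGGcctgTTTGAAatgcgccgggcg
Kif5c: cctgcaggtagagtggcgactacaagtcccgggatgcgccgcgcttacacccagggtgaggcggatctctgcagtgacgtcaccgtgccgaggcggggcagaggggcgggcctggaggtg
Kif26a: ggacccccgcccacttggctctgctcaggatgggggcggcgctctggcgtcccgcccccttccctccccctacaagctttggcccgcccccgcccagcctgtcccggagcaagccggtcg
In Kif11 the TTTGAA match began 19 bases before the start, and in Kif22 it began 17 bases before it. In Kif18b and Kif23 it lay just after the start, at positions 4 and 3. In all 4 the nearest CCAAT match lay upstream of it.

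**Figure D1:**
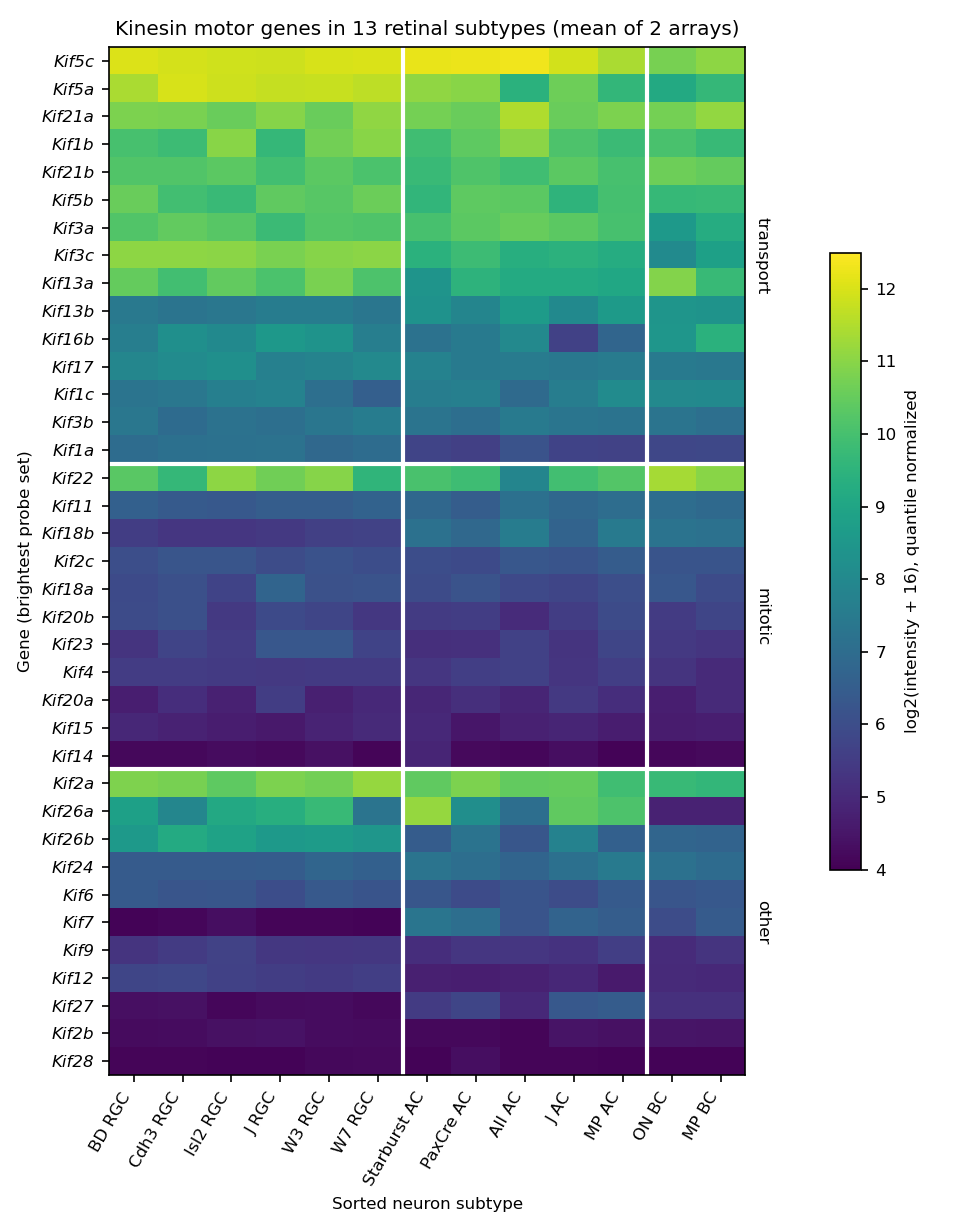
Mean level of each of the 37 kinesin genes (rows, by role) in each of the 13 subtypes (columns, by class), colour giving log2(intensity + 16) of the brightest probe set as the mean of 2 arrays. Within a row, Kif26a spans the widest range, from 11.17 in starburst cells to 4.81 in ON bipolar cells, and Kif7 and Kif27 are near the floor in all 6 ganglion columns.

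Across all 13 subtypes, 20 of the 29 tested kinesins differed (69.0%), beside 71.3% of all genes tested. They comprised 11 of 15 transport motors, 3 of 7 mitotic motors and 6 of 7 others. The range between the highest and lowest subtype mean had a median of 1.52 for the transport motors, 0.84 for the mitotic and 1.18 for the other kinesins, against 1.34 for all genes measured. Within classes fewer differed. Among the 6 ganglion cell groups only Kif26a did, 1 of 29 (3.4%; 5.94% of all genes). Among the 5 amacrine groups 8 did (27.6%; 40.2% of all genes): Kif5a, Kif7, Kif13a, Kif16b, Kif22, Kif26a, Kif26b and Kif27.

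Of the motors that carry cargo, the kinesin heavy chains Kif5a, Kif5b and Kif5c move mitochondria and vesicles along axons and dendrites. Kif5a, the chain found mainly in neurons, was high in ganglion cells, with a lowest, median and highest array of 11.14, 11.77 and 12.01. Amacrine arrays spread over 9.31, 10.61 and 11.19, and the 4 bipolar arrays read 9.58 and 9.77 (MP) and 9.43 and 8.89 (ON). The amacrine groups split: starburst (10.96 and 11.19), PaxCre (10.95 and 11.03) and J amacrine cells (10.64 and 10.59) lay above MP (9.65 and 9.62) and AII cells (9.56 and 9.31). The ganglion group means were 11.43 in BD, 11.66 in W7, 11.75 in J, 11.77 in W3, 11.84 in Isl2 and 11.97 in Cdh3 cells. Only the highest amacrine array, starburst, reached past the lowest ganglion array, BD. Ganglion cells exceeded amacrine cells by 1.39 ± 0.09 (SE, 12 and 10 arrays; 2.61-fold, adjusted p = 6.04e-11) and bipolar cells lay 2.32 ± 0.12 below ganglion cells (adjusted p = 5.23e-12). AII cells differed by -1.14 ± 0.16 from the other amacrine groups (adjusted p = 2.33e-05). The 2 dimmer Kif5a probe sets averaged 5.78 and 4.43, both under the overall median of 6.14, and neither showed the difference (0.23 for the brighter of them).

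Kif5c, another neuronal heavy chain, showed no such step between ganglion and amacrine cells. Its arrays ran from 11.82 to 12.12 in ganglion cells and from 11.31 to 12.33 in amacrine cells, whereas bipolar arrays read 11.07 and 11.05 (MP) and 10.55 and 10.93 (ON), below all others. The ganglion to amacrine difference was -0.07 ± 0.07 (adjusted p = 0.416). Bipolar cells fell by 1.12 ± 0.10 against amacrine cells (adjusted p = 6.63e-08) and by 1.06 ± 0.10 against ganglion cells, the latter -0.96 without ON bipolar replicate 1 and -0.99 with arrays shifted to the same median. A second Kif5c probe set gave the same direction for bipolar against amacrine cells (-1.56, called). Kif5b, the ubiquitous chain, ranged less, from 9.53 in J amacrine to 10.61 in W7 ganglion cells. Its class differences with the brightest probe set did not reach 1 log2 unit, at 0.54 between ganglion and bipolar cells. Of its 5 other probe sets, 2 were called lower in bipolar than in amacrine cells (-1.01 and -1.23). With the brightest probe sets, Kif5a and Kif5c were thus called lower in bipolar than in ganglion cells, and Kif5a alone was called between ganglion and amacrine cells.

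Kif3a and Kif3b pair with the adaptor Kifap3 to form heterotrimeric kinesin, which serves axons and cilia, and Kif3c is an alternative partner of Kif3a in neurons. Kif3a was low in bipolar cells, where the arrays read 9.06 and 9.46 (MP) and 8.93 and 8.29 (ON). It ran from 9.69 to 10.66 in ganglion and from 9.90 to 10.62 in amacrine cells, without overlap with the bipolar arrays. Bipolar cells fell by 1.32 ± 0.13 against amacrine cells (2.50-fold, adjusted p = 2.22e-07) and by 1.25 ± 0.12 against ganglion cells. All 4 probe sets of Kif3a were lower in bipolar than in ganglion cells and called. Kifap3 was also lowest in bipolar cells, averaging 11.72 in ganglion, 11.29 in amacrine and 10.38 in bipolar cells, and fell by 1.34 in bipolar against ganglion cells. Kif3b did not differ by 1 log2 unit anywhere with its brightest probe set, whose subtype means ran from 6.96 to 7.58.

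Kif3c separated the 3 classes with its brightest probe set and gave the opposite order of ganglion and amacrine cells with the other. With the brightest probe set the ganglion arrays lay at 10.75, 10.98 and 11.18 (lowest, median and highest), the amacrine arrays at 9.20, 9.40 and 9.94, and the bipolar arrays at 8.56 and 9.13 (MP) and 7.99 and 8.14 (ON). Group means were 11.05 in Cdh3, 11.04 in BD, 11.02 in Isl2, 11.01 in W7, 10.96 in W3 and 10.80 in J ganglion cells, and 9.84 in PaxCre, 9.48 in J, 9.44 in starburst, 9.32 in AII and 9.25 in MP amacrine cells. No array of one class reached another class, and the differences were 1.52 ± 0.08 for ganglion minus amacrine (2.86-fold, adjusted p = 5.54e-12) and -2.53 ± 0.11 for bipolar minus ganglion (adjusted p = 5.83e-13). The other Kif3c probe set, also well above the overall median, averaged 8.25 in ganglion, 10.29 in amacrine and 9.64 in bipolar cells. Its ganglion to amacrine difference was -2.04, called in the opposite direction. Direction for this gene therefore rests on the choice of probe set. Kif17, a homodimeric motor of dendrites and cilia, ranged from 7.39 to 8.24 and differed by 0.41 between ganglion and amacrine cells, under 1 log2 unit, while its second probe set differed by -0.25.

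**Figure D2:**
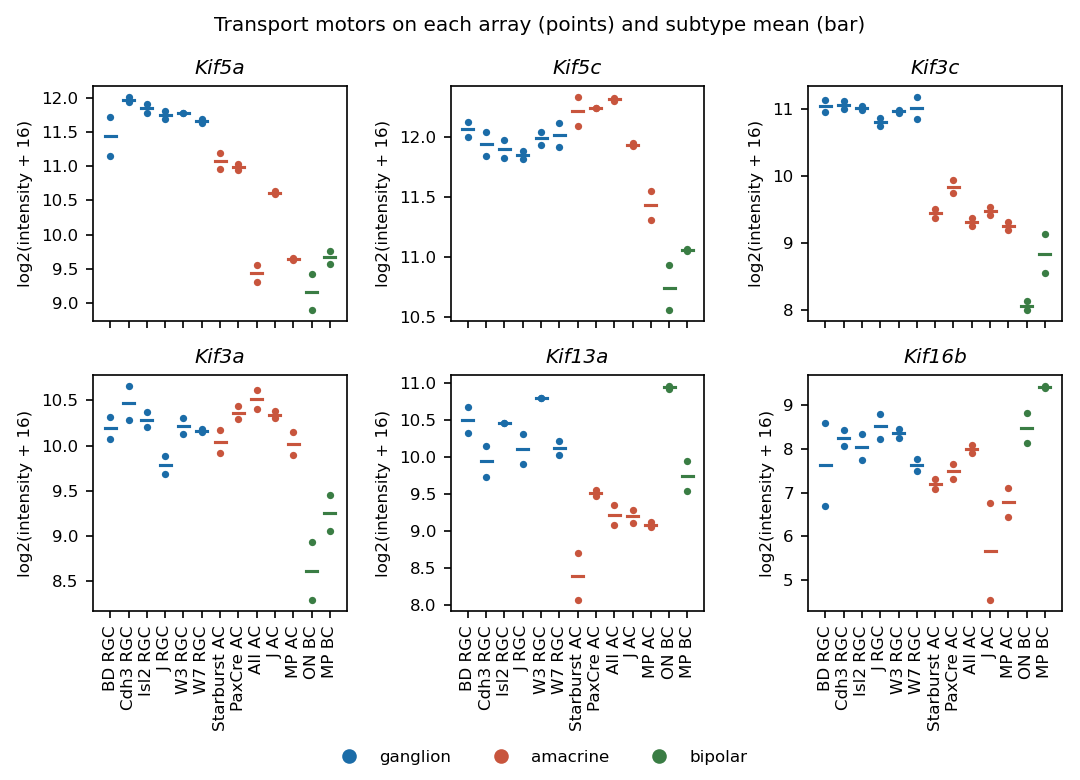
Level of 6 transport motors on each array (points, y axis log2(intensity + 16)) by subtype, with the subtype mean as a bar and colour for class. Bipolar arrays are lowest for Kif5c, Kif3c and Kif3a, Kif13a is high in ganglion and ON bipolar cells, and the J amacrine arrays of Kif16b stand 2.23 apart.

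The remaining transport motors include those of synaptic vesicle precursors and of endosomes. Kif1a, which carries synaptic vesicle precursors, ran from 6.69 to 7.34 in ganglion cells, from 5.43 to 6.22 in amacrine cells and from 5.65 to 6.02 in bipolar cells. It was higher in ganglion than in amacrine cells by 1.29 ± 0.09 (2.44-fold, adjusted p = 8.00e-10) without overlap, and bipolar cells fell by 1.24 ± 0.13 against ganglion cells. Its other probe set averaged 5.66, under the overall median, and lacked the difference (5.73 in ganglion, 5.70 in amacrine cells). Kif1b, a carrier of mitochondria and of vesicle precursors, was not called between classes with its brightest probe set. The next differed by 0.96 between ganglion and amacrine cells, under 1 log2 unit, the sixth was called between bipolar and ganglion cells (1.95) and the seventh between ganglion and amacrine cells (1.23). With the brightest, Kif1b was highest in AII (11.02 and 11.04), W7 (11.05 and 10.94) and Isl2 cells (10.98 and 10.98) and lowest in J ganglion cells (9.21 and 10.10), whose replicates differed by 0.89. Kif1c, a vesicle motor of many cell types, ranged from 6.58 in W7 to 8.10 in MP amacrine cells without a class call.

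Kif13a and Kif16b both act on endosomal membranes. Kif13a ran from 9.72 to 10.80 in ganglion cells and from 8.06 to 9.55 in amacrine cells without overlap, a difference of 1.24 ± 0.10 (2.36-fold, adjusted p = 1.70e-09). The bipolar groups parted here: ON bipolar arrays read 10.92 and 10.95, the highest of any subtype, and MP bipolar arrays 9.54 and 9.94. This difference of 1.20 ± 0.22 (adjusted p = 0.00182) was the single kinesin called between the bipolar groups, 1 of 29 (3.4%; 5.03% of all genes). Group means over ganglion cells were 10.79 in W3, 10.49 in BD, 10.46 in Isl2, 10.12 in W7, 10.10 in J and 9.94 in Cdh3 cells. Over amacrine cells they were 9.51 in PaxCre, 9.21 in AII, 9.19 in J, 9.08 in MP and 8.38 in starburst cells, the lowest. The difference between the bipolar groups was 0.99 without MP bipolar replicate 1, under 1 log2 unit. Of the 4 other Kif13a probe sets, the brightest differed by 0.92 between ganglion and amacrine cells and the rest by at most 0.11.

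Kif16b was highest in MP bipolar cells (9.41 and 9.44) and lowest in J amacrine cells (6.77 and 4.54). Bipolar cells exceeded amacrine cells by 1.93 ± 0.33 (3.81-fold, adjusted p = 2.01e-04) and ganglion cells exceeded them by 1.05 ± 0.24 (adjusted p = 8.88e-04). These calls rest on the brightest probe set alone. The 2 other Kif16b probe sets averaged 5.15 and 4.94, under the overall median, and were too dim to test. They gave 0.04 and 1.01 for bipolar minus amacrine, and -0.06 and 0.38 for ganglion minus amacrine. Group means over ganglion cells were 8.52 in J, 8.37 in W3, 8.25 in Cdh3, 8.04 in Isl2, 7.64 in BD and 7.63 in W7 cells. Over the other amacrine cells they were 8.00 in AII, 7.49 in PaxCre, 7.21 in starburst and 6.78 in MP cells, and ON bipolar arrays read 8.83 and 8.14. The ganglion to amacrine difference fell below 1 log2 unit without J amacrine replicate 2 (0.83), BD replicate 1 (0.89) or MP amacrine replicate 2 (0.99). BD ganglion arrays also parted (8.60 and 6.69). Kif13b, a paralogue of Kif13a, moved the other way, at 7.23 to 7.64 in ganglion, 7.79 to 8.75 in amacrine and 8.33 to 8.50 in bipolar cells. These groups did not overlap with ganglion cells, yet the difference of -0.88 ± 0.07 stayed under 1 log2 unit. Kif21a and Kif21b, slow motors that also restrain microtubule growth, varied little, with ranges of subtype means of 0.94 and 0.86. Kif21a peaked in AII cells (11.40 and 11.58).

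The class comparison put these motors side by side. Between ganglion and amacrine cells, 9 of 29 tested kinesins were called (31.0%, beside 24.8% of all genes). Of these 6 were higher (20.7%, beside 15.8% of all genes), namely 5 transport motors (Kif1a, Kif3c, Kif5a, Kif13a and Kif16b) and Kif26b. The other 3 were lower (10.3%, where 1255 of all 13951 genes were lower), the mitotic Kif18b and the others Kif7 and Kif27. No transport motor was called lower with its brightest probe set, though Kif13b differed by -0.88 without overlap between arrays, and dimmer probe sets of Kif1c, Kif3b and Kif3c were called lower. The median difference over the 15 transport motors was 0.15, against 0.00 over all genes tested. Between bipolar and amacrine cells 7 were called (24.1%, beside 10.4%), of which 3 were higher (10.3%, beside 4.67%), which were Kif13a, Kif16b and Kif22, and 4 lower (13.8%, beside 5.70%), which were Kif3a, Kif3c, Kif5c and Kif26a. Kif3c lost its call against amacrine cells without any of 7 single arrays, at most to -0.87 (without MP bipolar replicate 1). Between bipolar and ganglion cells 10 were called (34.5%, beside 29.6%), of which 2 were higher (6.9%, beside 11.2%), Kif7 and Kif18b, and 8 lower (27.6%, beside 18.5%): Kif1a, Kif2a, Kif3a, Kif3c, Kif5a, Kif5c, Kif26a and Kif26b. The 3 comparisons share arrays, so that their counts are not independent.

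**Figure D3:**
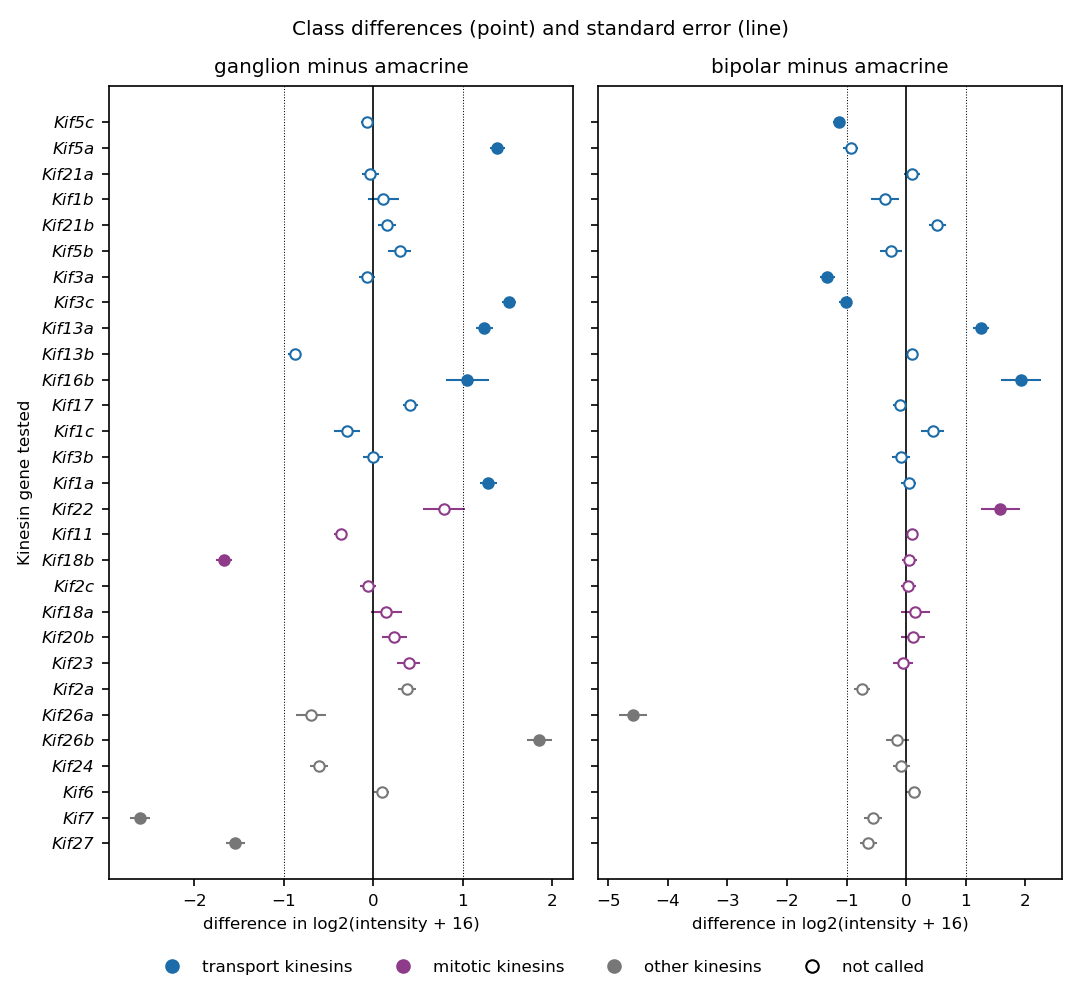
Difference in log2(intensity + 16) between classes for the 29 tested kinesins (rows), ganglion minus amacrine on the left and bipolar minus amacrine on the right; points are differences, lines their SE, filled points called ones, and dotted lines mark 1 log2 unit. Kif3c lies at 1.52 on the left panel, and Kif26a lies at -4.58 on the right panel.

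Probes of a gene did not always tell the same story. Fitted singly, 63 of the 99 kinesin probe sets were bright enough to test. Between ganglion and amacrine cells 8 were higher and 7 lower, beside 14.1% and 12.1% of the 30615 probe sets tested. Between bipolar and amacrine cells 3 probe sets were higher and 9 lower (4.84% and 5.23% of all), and between bipolar and ganglion cells 7 were higher and 13 lower (14.7% and 16.4%). Kif2c and Kif3c had probe sets called in both directions between ganglion and amacrine cells. For Kif2c, a microtubule depolymerase of mitosis, the brightest probe set differed by -0.06, whereas the next differed by -1.36 and the third by 1.61. Dimmer probe sets of Kif1c (-1.99) and Kif3b (-1.93) were also lower in ganglion cells while their brightest were not called. Among the 9 genes called between ganglion and amacrine cells, 5 had a second probe set, of which 2 averaged above the overall median. Of these 5, 3 had the same sign, 0 were called the same way and 1 was called the opposite way. Of the 7 called between bipolar and amacrine cells, 6 had a second, all 6 with the same sign and 2 called. Of the 10 called between bipolar and ganglion cells, 6 had a second, 5 with the same sign. Of these, 1 was called the same way and 1 the opposite way. Kif7, Kif18b, Kif26a, Kif26b and Kif27 each had a single probe set. Probe sets of a gene can read different transcript ends. As deposited, the control probe set for the 5′ end of actin averaged 469 on ganglion arrays against 151 on the others. The set for its 3′ end averaged 2170 against 2462. For Gapdh the 5′ end averaged 1130 against 669 and the 3′ end 5122 against 4314. These intensities were not normalized, and ganglion arrays were deposited on the higher scale. The part of this in the probe conflicts was not tested.

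**Figure D4:**
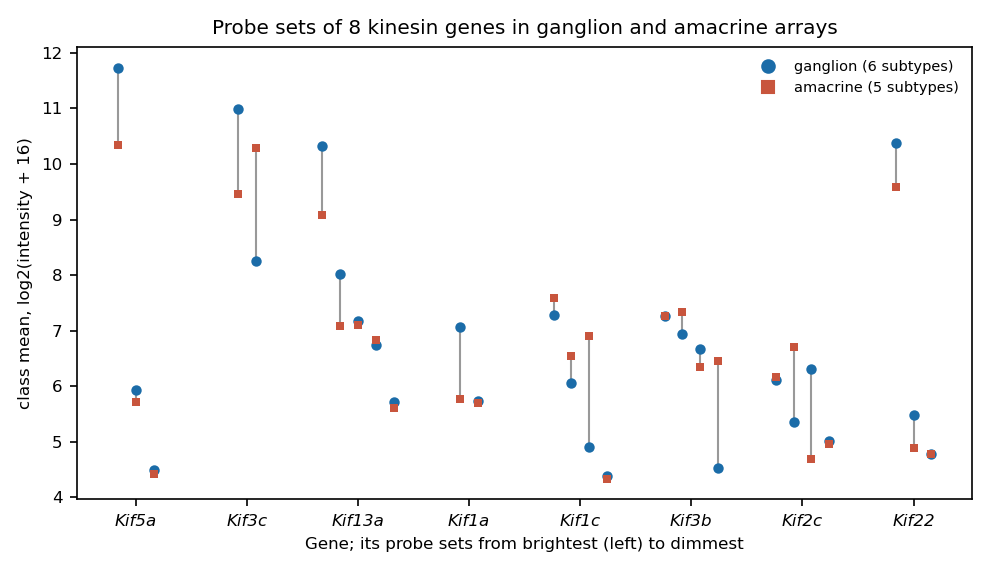
Mean ganglion (circles) and amacrine (squares) level, as log2(intensity + 16), of every single-symbol probe set of 8 kinesin genes, ordered within each gene from brightest to dimmest. The 2 probe sets of Kif3c point in opposite directions, and the dimmer probe sets of Kif5a and Kif22 lie near background.

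Among the mitotic kinesins, 4 of 11 were too dim to test. Of the 7 tested, 3 were called among the 13 subtypes: Kif18b, Kif22 and Kif23. Kif11, the motor that pushes spindle poles apart, ran from 6.22 to 7.19 over all 26 arrays and was 0.36 lower in ganglion than in amacrine cells. Kif2c had subtype means from 5.91 to 6.47 and Kif20b, which acts in cytokinesis, from 5.03 to 6.06. Those of Kif18a, which aligns chromosomes, ran from 5.72 to 6.73. With their brightest probe sets, Kif2c, Kif20b and Kif18a were not called in any class comparison. Kif20a, of the cleavage furrow, reached 6.06 on its highest array, J ganglion replicate 2, and Kif14, another motor of cytokinesis, reached 5.58 at most. Kif15, which helps to hold the spindle apart, peaked at 5.53 and the chromosome-bound Kif4 at 5.75.

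Kif18b, which trims the astral microtubules of the spindle, was the mitotic motor called between ganglion cells and both other classes. It ran from 5.10 to 5.79 in ganglion cells, from 6.57 to 7.56 in amacrine cells and from 7.15 to 7.25 in bipolar cells. Group means were 5.34 in Cdh3, 5.35 in Isl2, 5.40 in J, 5.56 in BD, 5.61 in W3 and 5.67 in W7 ganglion cells, and 6.72 in J, 6.88 in PaxCre, 7.16 in starburst, 7.45 in MP and 7.56 in AII amacrine cells, and 7.18 in MP and 7.23 in ON bipolar cells, without overlap between ganglion cells and the rest. Ganglion cells fell by 1.67 ± 0.09 against amacrine cells (3.18-fold, adjusted p = 8.07e-12), and bipolar cells exceeded ganglion cells by 1.72 ± 0.12 (adjusted p = 5.47e-10). Kif23, a core of the central spindle, was called among the 13 subtypes and was highest in W3 (6.12 and 6.51) and J ganglion cells (mean 6.31), against 5.16 in starburst cells. Neither group was called against the other ganglion cells (0.61 and 0.60; adjusted p = 0.300 and 0.180). J ganglion arrays also had the highest mean over 22 mitosis genes (7.25), with Mki67 at 8.24, whereas W3 arrays had Mki67 at 5.39. PaxCre amacrine cells matched J ganglion cells for Mki67 (8.23) but not for the mean over the mitosis genes (6.85), and had Kif23 at 5.19. J ganglion cells also had the highest group mean over microglia (9.69) and vascular markers (8.01). PaxCre cells had the highest over Muller glia and progenitor markers (7.85). Which cells in these sorts gave the mitosis transcripts was not tested.

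Kif22, a motor that binds chromosome arms, looked unlike the rest of its group. Its brightest probe set read 7.72 to 11.42, with ON bipolar cells (11.42 and 11.27) highest and AII amacrine cells (8.01 and 7.72) lowest. Bipolar cells exceeded amacrine cells by 1.58 ± 0.32 (2.99-fold, adjusted p = 9.69e-04), and AII cells differed by -2.15 ± 0.43 from the other amacrine groups (adjusted p = 8.55e-04). Group means were 11.04 in Isl2, 10.96 in W3, 10.67 in J, 10.33 in BD, 9.65 in Cdh3 and 9.56 in W7 ganglion cells, 10.98 in MP bipolar cells, and 10.22 in MP, 10.06 in starburst, 9.92 in J and 9.84 in PaxCre amacrine cells. Replicates differed widely in Cdh3 cells (10.82 and 8.47). This probe set is of the type that the maker marks as prone to hybridise with other transcripts, and the 2 other Kif22 probe sets averaged 5.22 and 4.75, under the overall median. Whether the signal comes from Kif22 was not tested.

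**Figure D5:**
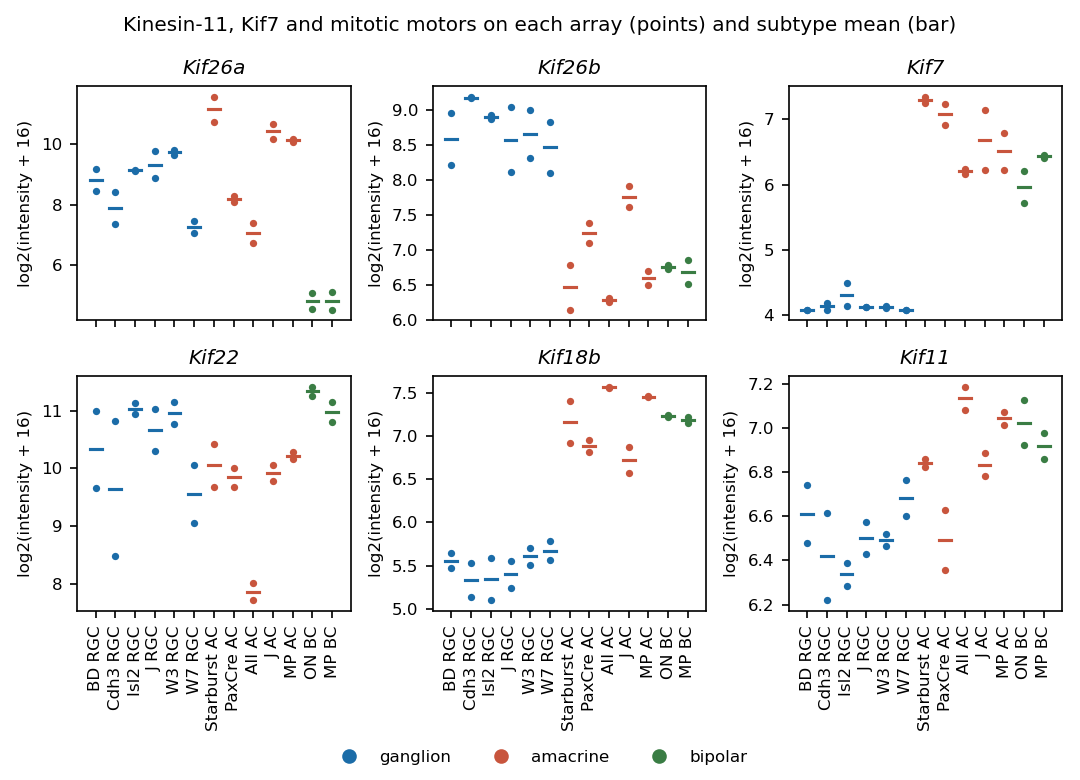
Level of 6 further kinesins on each array (points, y axis log2(intensity + 16)) by subtype, with the subtype mean as a bar and colour for class. Kif26a spreads from 4.53 to 11.58, Kif7 lies at or near 4.09 on all ganglion arrays, and Kif18b is lower on all 12 ganglion arrays than on the others.

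The widest spread of any kinesin was that of Kif26a, an atypical member that lacks motor activity and is known for its role in enteric neurons. Starburst cells were highest (11.58 and 10.75), followed by J amacrine (10.19 and 10.68) and MP amacrine cells (10.09 and 10.19). The ganglion groups came next, at 9.82 and 9.66 in W3, 9.77 and 8.88 in J, 9.13 and 9.15 in Isl2, 9.19 and 8.47 in BD, 8.42 and 7.36 in Cdh3 and 7.46 and 7.08 in W7 cells. PaxCre (8.29 and 8.08) and AII cells (7.41 and 6.72) lay within the ganglion range or below it. Both bipolar groups were near the floor, at 4.53 and 5.11 (MP) and 4.54 and 5.08 (ON), which are deposited intensities of 6.22 to 15.9 against 73.3 or more on all other arrays. The mean of starburst cells exceeded that of ON bipolar cells by 6.36 log2 units. MP amacrine and MP bipolar cells, which share a reporter line and differ in the VC1.1 gate, stood at 10.14 and 4.82.

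In tests, Kif26a differed by -4.58 ± 0.23 between bipolar and amacrine cells (24.0-fold lower, adjusted p = 4.29e-11) and by -3.89 ± 0.22 between bipolar and ganglion cells (14.8-fold lower, adjusted p = 3.74e-11). Within the amacrine class, starburst cells exceeded the other groups by 2.21 ± 0.31 (adjusted p = 2.80e-05), AII cells differed from the rest by -2.92 ± 0.31 (adjusted p = 1.11e-06), PaxCre cells by -1.52 ± 0.31 (adjusted p = 0.00225) and J cells by 1.29 ± 0.31 (adjusted p = 0.00863). Within the ganglion class, W7 cells differed from the others by -1.72 ± 0.30 (adjusted p = 0.00321). Without W7 replicate 2 the W7 difference was -1.53, and without PaxCre replicate 2 the PaxCre difference was -1.41. Without J amacrine replicate 2 the J difference was 1.05. These 3 calls were lost there, although the differences stayed above 1 log2 unit in size. Such a fit leaves 1 array in the group, so the loss cannot show that a call rests on a single array. The starburst, AII and bipolar calls held without any single array.

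Kif26b, its paralogue, followed another pattern. Ganglion arrays ran from 8.11 to 9.20 with a median of 8.91, amacrine arrays from 6.15 to 7.92 with a median of 6.75, and bipolar arrays read 6.52 and 6.86 (MP) and 6.80 and 6.73 (ON). Group means were 9.18 in Cdh3, 8.91 in Isl2, 8.66 in W3, 8.59 in BD, 8.58 in J and 8.47 in W7 ganglion cells, and 7.77 in J, 7.25 in PaxCre, 6.61 in MP, 6.47 in starburst and 6.29 in AII amacrine cells. No other class overlapped with ganglion cells. They exceeded amacrine cells by 1.86 ± 0.14 (3.62-fold, adjusted p = 1.04e-09), and bipolar cells differed from them by -2.01 ± 0.19 (adjusted p = 2.94e-08). J amacrine cells (7.62 and 7.92) were above the other amacrine groups by 1.11 ± 0.26 (adjusted p = 0.00738), a call lost without J amacrine replicate 2 (0.97, adjusted p = 0.101).

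Kif7, a ciliary regulator of Hedgehog signalling, was at or near the floor in all ganglion groups. Its ganglion arrays read deposited intensities of 1 to 7.49, 1 being the value at which dim probe sets pile up, and 4.09 to 4.49 on the log2 scale. Group means were 7.30 in starburst, 7.08 in PaxCre, 6.69 in J, 6.51 in MP and 6.20 in AII amacrine cells, against 4.32 in Isl2, 4.14 in Cdh3, 4.13 in J and W3 and 4.09 in BD and W7 ganglion cells. Amacrine arrays ran from 6.17 (AII replicate 2) to 7.35 (starburst replicate 2), and bipolar arrays read 6.45 and 6.41 (MP) and 5.73 and 6.21 (ON). The log2 difference was -2.61 ± 0.11 for ganglion minus amacrine (adjusted p = 2.21e-13) and 2.05 ± 0.15 for bipolar minus ganglion (adjusted p = 6.40e-10). Kif27, a close relative of Kif7 linked to motile cilia, showed the same order of the 3 class means at a dimmer level, but another order among the amacrine groups. Its ganglion arrays ran from 4.09 to 4.69, amacrine arrays from 4.97 to 6.61 and bipolar arrays from 4.98 to 5.35, and the ganglion to amacrine difference was -1.54 ± 0.11 (adjusted p = 3.09e-10). Its highest groups were MP (6.61 and 6.37) and J amacrine cells (6.08 and 6.58), followed by PaxCre (5.64 and 5.93) and starburst cells (5.70 and 5.23). The ganglion group means were 4.39 in Cdh3, 4.36 in BD, 4.27 in W3, 4.24 in J, 4.17 in W7 and 4.16 in Isl2 cells, and bipolar arrays read 5.31 and 5.07 (MP) and 5.35 and 4.98 (ON). AII cells, at 4.97 on both arrays, differed from the other amacrine groups by -1.05 ± 0.20 (adjusted p = 4.43e-04), a difference of -0.93 to -0.96 under the 3 other scalings, where it was not called.

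Kif2a, a depolymerase that shortens microtubules in growing and pruned neurites, was lowest in bipolar cells at 9.63 and 9.60 (MP) and 9.71 and 9.73 (ON), and ran from 9.75 to 10.87 in amacrine and from 10.37 to 11.57 in ganglion cells. Bipolar cells fell by 1.12 ± 0.13 against ganglion cells (2.18-fold, adjusted p = 6.36e-07). The second brightest of its 5 probe sets gave -0.94 and the median over them 0.13, so the call belongs to the brightest. Kif24, which acts on centrioles, had subtype means from 6.43 in BD ganglion to 7.45 in MP amacrine cells and was 0.61 lower in ganglion than in amacrine cells. Kif6, of motile cilia, ranged from 5.94 to 6.41 and was not called in any test. Among those too dim to test, Kif12 was the one with ganglion arrays (5.24 to 6.06) set apart from all amacrine arrays (4.28 to 5.21). Kif9, Kif2b and Kif28 reached at most 5.86, 4.76 and 4.55.

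Each subtype was also set against the rest of its class, which gave 11 called gene and subtype pairs over 11 such comparisons of 29 kinesins, beside 5.19% of all gene and subtype pairs. Only W7 cells had one among the ganglion groups, beside 1.37% of all genes there. AII amacrine cells had 5: Kif5a, Kif22, Kif26a and Kif27 lower and Kif16b higher (1.21 ± 0.45, adjusted p = 0.0406), beside 16.2% of all genes in that comparison. The Kif16b call of AII cells was lost without any of 6 single arrays (0.93 to 1.31) and under 2 other scalings. J amacrine cells had 3, beside 6.06% of all genes, of which Kif16b (-1.71 ± 0.45, adjusted p = 0.0157) turned on the array at 4.54 and was -0.60 (adjusted p = 0.474) without it. Starburst and PaxCre cells had Kif26a alone, beside 10.9% and 6.54%. No kinesin was called by limma in BD, Cdh3, Isl2, J and W3 ganglion cells or MP amacrine cells, beside 0.495%, 2.09%, 0.222%, 2.04%, 0.803% and 10.4% of all genes. In the order of levels, AII was the highest subtype for 5 of 15 transport motors (Kif1b, Kif3a, Kif5c, Kif13b and Kif21a), and ON bipolar cells were the lowest for 4 (Kif3a, Kif3c, Kif5a and Kif5c), a description with no test. None of these 5 was called in AII cells against the other amacrine groups. The share of all genes with their extreme in these groups was not computed, so the counts cannot be called unusual.

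The partners of these motors were followed in the lists chosen for this purpose. Of 19 light chains and adaptors, 2 were higher and 1 lower in ganglion than in amacrine cells, fewer by share than the 15.8% of all genes that were higher and the 1255 of 13951 that were lower, with Klc3, a kinesin light chain, lower (-1.36) and Jakmip1, a microtubule-binding partner of the motors, higher (1.40). Klc3 averaged 5.39 in ganglion, 6.75 in amacrine and 9.66 in bipolar cells, and was higher in bipolar than in ganglion cells by 4.27 ± 0.20 (adjusted p = 1.76e-12). Jakmip1 ran the opposite way, at 10.59, 9.19 and 7.19. The mitochondrial adaptor Trak2 was also higher in bipolar than in ganglion cells (1.47), and between these classes 4 adaptors were higher and 2, Kifap3 and Jakmip1, lower, beside 11.2% and 18.5% of all genes. Klc1, the main neuronal light chain, was not called, at 11.82, 11.76 and 11.33.

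Of the retrograde machinery, 19 dynein and dynactin genes were tested. Against amacrine cells 1 was higher in ganglion cells (15.8% of all genes) and 2 were lower in bipolar cells (5.70% of all genes), and 3 were lower in bipolar than in ganglion cells (18.5% of all genes). Dync1i1, the neuronal dynein intermediate chain, led these, averaging 10.02 in ganglion, 7.93 in amacrine and 5.43 in bipolar cells, with a bipolar to ganglion difference of -4.59 ± 0.19 (adjusted p = 5.23e-13). The minus-end kinesin Kifc2, a dendritic and axonal motor outside the Kif symbols, was higher in ganglion than in amacrine cells by 1.18 ± 0.14 (adjusted p = 4.30e-07). Of 20 mitosis genes tested, 2 (Birc5 and Anln) were higher in ganglion than in amacrine cells and none lower, beside 15.8% of all genes higher. The median difference was 0.11 for the mitosis genes and 0.14 for the 7 mitotic kinesins.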

How the data were processed

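The authors deposited array intensities on a linear scale for mouse retinal cells at postnatal day 6: 26 arrays, 13 subtypes, 2 arrays each from different litters. Per the labels' protocols, cells were freed with papain, RNA was isolated with PicoPure kits and amplified in 2 rounds (MessageAmp II). How the authors scaled the deposited intensities, and with which software, is not given in the sources used here. They were analysed as log2(intensity + 16) and quantile normalized after removal of 64 control probe sets. Of the single-symbol probe sets, 34945 in number, 34741 had their symbol updated by gene identifier (9160 had none, 932 several, among them 1 with a kinesin). The brightest stood for each gene. Genes above the overall median of 6.14 on at least 2 arrays, 13951 in all, were fitted with limma 3.58.1 in R 4.3.3 (group means, 13 residual and 4.59 prior degrees of freedom). Class differences weight subtypes equally. All 29 tested kinesins are accounted for. Levels by subtype are given in full for those called among the 13 subtypes with a range of at least 2 log2 units, and a subtype is named where called against its class. Members, lists and tests were chosen with earlier results of these data known. Promoters come from RefSeq (GRCm38.p6). Replicates were treated as unpaired. Deviations of replicate 1 had a median correlation of 0.03 over 78 pairs of subtypes, with 21 pairs above 0.1 and a highest of 0.37. A median over all pairs cannot exclude pairing within single pairs of subtypes. In simulated data, unchanged genes had equal means in all subtypes and independent normal noise, so that few false calls were built in. Planted changes of 1 log2 unit lay at the calling threshold, so that part of them was lost by construction. Between ganglion and amacrine cells the fit found 58% of these and 100% of those of 1.5, with 0 false calls among 13951 genes. Between ON and MP bipolar cells it found 26% and 78% with 4 false calls. Among the 13 subtypes, where starburst cells alone were shifted, it found 6% and 62% with 6. These figures do not measure the error rate in the real arrays. The number of arrays limits the precision.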

Additional observations from a re-analysis of the deposited data

How the results depend on the processing

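Values as deposited put the median gene 0.53 higher in ganglion than in amacrine cells and raised the share of called genes that were higher from 63.7% to 85.5%. Under the 3 other scalings no called kinesin changed direction. The choice of probe set moved more. The count between ganglion and amacrine cells was 9, and 5 with the median over probe sets (1 higher, 4 lower) and 5 with a filter at the upper quartile, which tested 18 kinesins. Between bipolar and amacrine cells 7 became 2 with the median and 3 with the second brightest probe set, and the single call between ON and MP bipolar cells became 0 with either. Among ganglion groups 1 became 2 with values as deposited, with arrays shifted to the same median and with normalization within each set of arrays. Kif3c reversed to -0.26 (median) and -2.04 (second probe set) for ganglion minus amacrine and to 1.39 (second) for bipolar minus ganglion, and Kif2a to 0.13 (median) for the latter. Leaving out single arrays gave 8 to 9, 6 to 7 and 10 to 12 calls in the 3 class comparisons, 19 to 22 among 13 subtypes, 1 to 3 among ganglion groups, 6 to 10 among amacrine groups, 1 to 1 between bipolar groups and 7 to 14 for subtypes against their class, the 7 without J amacrine replicate 2. The call between bipolar groups was not always the same gene, since Kif13a fell under 1 log2 unit without MP bipolar replicate 1. J ganglion cells left out of the mean, chosen after seeing the data, gave 8 and 11 calls against ganglion cells. With the replicate number as a block the counts were 9, 7 and 10 in the class comparisons and 20 among subtypes, and all 38 called gene values kept their call. Of these 38, pseudocount 64 took 9 below the threshold and pseudocount 1 took 1. The cause of these shifts was not tested.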
